A study of Rattus norvegicus with 6 samples.

Results

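The vacuolar proton pump (V-ATPase) was followed in rat spinal cord by way of 13 probe sets, a probe set being the group of array probes designed on one transcript sequence. Its genes were selected by symbol, as all single-gene entries of the array annotation that begin with Atp6v or Atp6ap, which gave 9 of the 4736 genes named on the array. The family itself was chosen from earlier results of the same contrast of injured with uninjured cord. Its changes are therefore given as a description, with standard errors and without p-values, and do not serve as independent evidence. The current rat annotation lists 27 protein-coding genes with these symbol stems, and the other 18 are not analysed here. Of the 13 probe sets, 12 were bright enough to be tested.

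Injured and uninjured tissue were compared, both taken at about thoracic segment 8. The contused group held 3 arrays from the injury site (the epicenter) 35 days after a contusion, a blunt blow to the cord. The uninjured group held 3 arrays from the same level of animals without injury, for which no day and no sham operation is named. Strain, sex, age and injury device are not given in the sources used here, and no genetic change or drug is named for either group. What surgery or elapsed time contributed cannot be told apart from what the blow did.

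The V-ATPase is a rotary motor. Its cytosolic V1 sector splits ATP, and its membrane-embedded V0 sector moves protons into the lumen of lysosomes, endosomes, secretory granules and synaptic vesicles. In phagocytes the acid activates lysosomal proteases, and in neurons the proton gradient drives the loading of synaptic vesicles with transmitter.

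Array medians lay close together, at signals of 122 to 127 after contusion and 124 to 126 without injury (in intensity units). Of all probe sets, 75.5% to 76.0% on contused arrays and 73.1% to 75.2% on uninjured arrays exceeded the floor, a signal of 61.6 below which values were set to that number. Correlations of log2 signals across probe sets were 0.958 to 0.977 within a group and 0.910 to 0.932 between groups, so that every array was closer to its own group. Nefh and Mog, markers of neurons and of myelin in the cord, were above the floor on all 6 arrays. The motor neuron and large-axon gene Nefh averaged 1033 ± 49.5 after contusion and 2108 ± 121 in uninjured cord, and the myelin gene Mog 471 ± 56.7 and 859 ± 83.3 (SD, n = 3 each).

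After contusion, 4 of the 12 tested V-ATPase probe sets were called lower and 0 higher, where called means an adjusted p under 0.05 in limma's fit over all 6705 probe sets tested. Over those 6705, 9.59% were called lower, 7.79% higher and 17.4% in either direction. The called probe sets belonged to Atp6v1a, Atp6v1d and Atp6v1f of the V1 sector and Atp6v0a1 of the V0 sector, with log2 changes of -0.56 to -1.0. Fold changes are taken from the means of log2 signals and can differ from the ratio of mean signals. Before adjustment, 6 of the 12 were lower at a limma p under 0.05 and 0 higher, against 16.3% and 14.0% of all probe sets tested. The median log2 change of the family was -0.39, against -0.0055 over all probe sets tested, and 10 of its 12 changes were below 0. For 5 probe sets every contused array lay under every uninjured array, and for 0 the reverse held. Over all probe sets tested, the contused arrays lay under the uninjured ones for 18.2% and above them for 16.6%, or 34.8% in either direction. Since the family was chosen from this contrast, nothing further is read from these shares.

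The count of 4 rested on few arrays. It was 0 without contused array 2, 1 without uninjured array 3 and 2 without contused array 1, and 4 or 5 without any other single array. Calls over all probe sets also fell there, to 465 of 6560, 371 of 6590 and 492 of 6545 lower, against 643 of 6705 with all arrays. Without the filter on dim probe sets the V-ATPase count was 1, the Atp6v0a1 probe set, beside 396 of 8740 over all probe sets. With single arrays left out, the call held in 2 of 6 cases for Atp6v1a and 3 of 6 for Atp6v0a1. It held in 4 of 6 for Atp6v1f and 5 of 6 for Atp6v1d. For all 4 called probe sets the log2 change stayed below 0 in each of the 14 alternative settings.

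**Figure D1:**
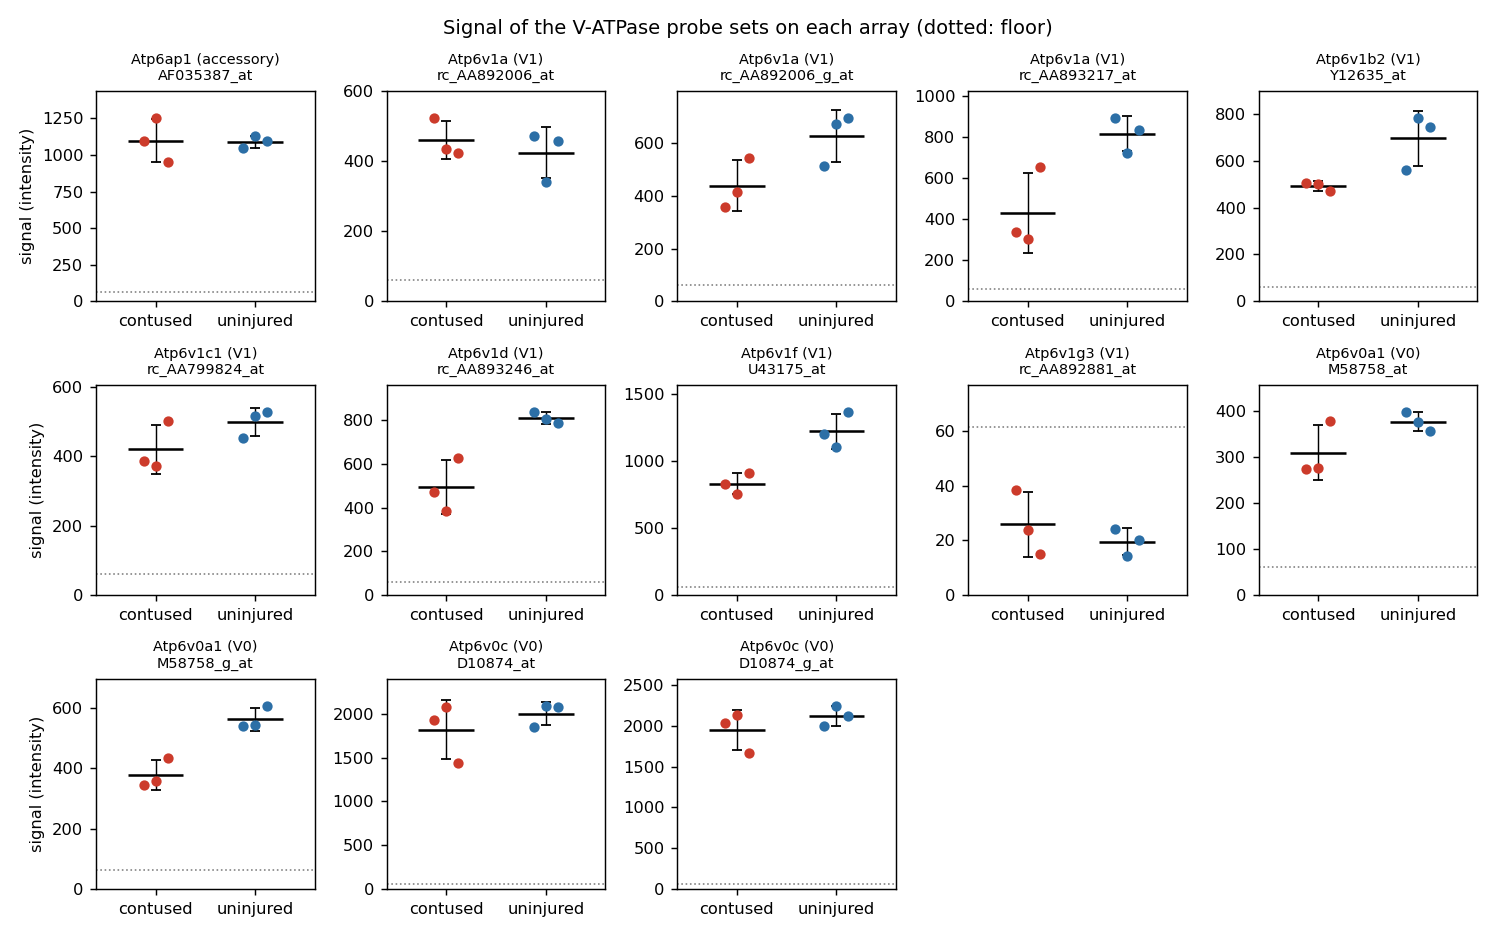
Signal of the 13 V-ATPase probe sets on each array, in intensity units from 0 upward, with 3 contused arrays (red, left) and 3 uninjured arrays (blue, right) per panel. Points are arrays, the horizontal line is the group mean, the bar is the SD, and the dotted line is the floor at 61.6; the groups do not overlap in the panels of Atp6v1b2, Atp6v1d, Atp6v1f, one Atp6v1a probe set and one Atp6v0a1 probe set.

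The sequence just upstream of the family's genes is shown for the 4 genes with a called probe set, and for Atp6v0c and Atp6ap1, which had none. RefSeq promoter entries of the GRCr8 assembly matched 7 of the 9 genes, all but Atp6v1b2 and Atp6v1c1. Each line gives the 120 bases that end just before the annotated start site, 5′ to 3′ on the gene's strand. Capitals mark whole matches to 3 motifs searched on both strands, CACGTG (the E-box core bound by TFEB, a regulator of lysosomal genes, and by other factors), GGGCGG (the GC box) and CCAAT (the CCAAT box).
Atp6v1a, chr11:70067382-70067501, plus strand: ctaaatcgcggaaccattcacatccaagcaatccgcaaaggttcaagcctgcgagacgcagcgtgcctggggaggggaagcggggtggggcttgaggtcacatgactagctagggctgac
Atp6v1d, chr6:103405347-103405466, minus strand: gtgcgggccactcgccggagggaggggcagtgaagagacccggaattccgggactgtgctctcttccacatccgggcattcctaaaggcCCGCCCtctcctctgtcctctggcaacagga
Atp6v1f, chr4:59032900-59033019, plus strand: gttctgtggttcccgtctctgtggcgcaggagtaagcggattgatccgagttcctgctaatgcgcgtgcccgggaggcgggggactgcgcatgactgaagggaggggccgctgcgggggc
Atp6v0a1, chr10:86436021-86436140, plus strand: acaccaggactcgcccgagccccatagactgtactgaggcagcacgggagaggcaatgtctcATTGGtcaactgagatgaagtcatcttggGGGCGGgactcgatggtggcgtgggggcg
Atp6v0c, chr10:13705843-13705962, minus strand: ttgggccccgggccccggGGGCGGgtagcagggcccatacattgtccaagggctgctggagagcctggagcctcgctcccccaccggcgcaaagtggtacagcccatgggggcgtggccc
Atp6ap1, chrX:157231123-157231242, plus strand: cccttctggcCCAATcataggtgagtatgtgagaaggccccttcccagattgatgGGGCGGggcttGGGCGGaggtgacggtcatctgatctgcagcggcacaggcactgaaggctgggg

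CACGTG was found in 0 of the 7 promoters over the whole window of 250 bases before to 50 bases after the start, against 6.42% of all 33469 rat promoters of that length and 8.42% of those of genes on the array. Of all 21 promoter entries with the family's symbol stems, including genes not analysed here, 2 held it, those of Atp6v0e1 and Atp6v0d1. GGGCGG was found in 5 of the 7, against 33.1% of all promoters and 55.7% of those of genes on the array, and in 13 of the 21. Matches that ran across the start site, in Atp6v1f and Atp6v0a1, or lay further upstream, in Atp6v0c, are not capitalised, and no match overlapped one of another motif. CCAAT was found in 3 of the 7, against 37.5% of all and 37.8% of those of genes on the array, and in 11 of the 21. No match says only that these letters are not in this window.

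The V1 sector, which holds the ATP-splitting head and the stalks that join it to the membrane, contributed 8 probe sets of 6 genes. Of its 7 tested probe sets 3 were called lower and 0 higher, with a median log2 change of -0.53.

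Atp6v1a encodes the catalytic A subunit. Its probe set rc_AA893217_at gave 336, 301 and 654 on contused arrays 1, 2 and 3, against 889, 721 and 833 on uninjured arrays 1, 2 and 3. The groups did not overlap, although contused array 3 came within 67.6 units of the lowest uninjured array while the other 2 contused arrays were far lower. It fell 2.01-fold, to 430 ± 194 against 814 ± 85.4 in uninjured cord (SD, n = 3 each; log2 change -1.0, SE 0.25).

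The other 2 Atp6v1a probe sets, both designed on one further sequence entry, did not pass and differed from each other in direction. The probe set rc_AA892006_g_at gave 357, 417 and 545 after contusion, against 515, 675 and 695 in uninjured cord, with a log2 change of -0.53 (SE 0.18). Its groups overlapped, contused array 3 lying above uninjured array 1. The probe set rc_AA892006_at gave 522, 435 and 422 after contusion, against 472, 340 and 458 in uninjured cord, with a log2 change of 0.13 (SE 0.16). There the contused and uninjured values were interleaved. The 3 probe sets thus gave log2 changes between -1.0 and 0.13 for one gene, and the files do not show which follows its mRNA best.

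Atp6v1d encodes the D subunit of the central rotor stalk. Its signal was 470, 385 and 627 on contused arrays 1 to 3, against 835, 806 and 784 on uninjured arrays 1 to 3. All contused arrays lay at least 158 units below the lowest uninjured array, and contused array 3 was again the highest of its group. It fell 1.67-fold, to 494 ± 123 against 809 ± 25.6 in uninjured cord (log2 change -0.74, SE 0.17).

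Atp6v1f encodes the F subunit, which sits on the same rotor. It gave 829, 750 and 909 after contusion, against 1196, 1102 and 1362 in uninjured cord, again with no overlap and with contused array 3 the highest of its group. It fell 1.47-fold (log2 change -0.56, SE 0.13).

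Atp6v1b2 encodes the B subunit isoform found in most tissues, which binds ATP beside the A subunit. Its signal was 507, 500 and 470 on the contused arrays, against 561, 782 and 746 on the uninjured arrays. The contused values were tightly grouped and all lay below uninjured array 1, the lowest of its group by a wide margin. Its log2 change of -0.49 (SE 0.15) lay just outside the threshold for a call, and it was called in 3 of 14 alternative settings.

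The remaining V1 genes gave no call. Atp6v1c1 encodes the C subunit, which links the stalks and takes part in the reversible docking of V1 on V0. It gave 386, 373 and 501 after contusion, against 453, 515 and 527 in uninjured cord (log2 change -0.26, SE 0.15), and the groups overlapped through contused array 3. Atp6v1g3, a stalk subunit isoform known from kidney, lay under the floor on all 6 arrays, at 15.0 to 38.5 after contusion and 14.3 to 24.1 in uninjured cord, and was not tested.

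The V0 sector was represented by 4 probe sets of 2 genes, all tested, of which 1 was called lower and 0 higher. Their median log2 change was -0.23.

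Atp6v0a1 encodes the a1 isoform of the large membrane subunit, prominent in neurons and on synaptic vesicles. Its probe set M58758_g_at gave 343, 356 and 434 on contused arrays 1 to 3, against 538, 542 and 606 on uninjured arrays 1 to 3. The groups were separated by 104 units. It fell 1.49-fold, to 378 ± 49.6 against 562 ± 37.9 in uninjured cord (log2 change -0.58, SE 0.14). A second probe set on the same sequence entry, M58758_at, gave 274, 277 and 379 after contusion, against 398, 377 and 356 in uninjured cord. Contused array 3 reached into the uninjured range, and the log2 change of -0.30 (SE 0.16) was not called.

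Atp6v0c encodes the proteolipid c subunit, whose copies form the rotating ring that carries the protons. Its probe set D10874_at gave 1930, 2081 and 1439 after contusion, against 1847, 2089 and 2071 in uninjured cord (log2 change -0.16, SE 0.15). Its probe set D10874_g_at, on the same entry, gave 2041, 2138 and 1672 after contusion, against 2000, 2244 and 2125 in uninjured cord (log2 change -0.13, SE 0.12). In both probe sets contused array 3 was the lowest of all 6 arrays and the other 2 contused arrays lay within the uninjured range. Neither was called.

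Atp6ap1 encodes the accessory glycoprotein Ac45, which guides the pump through the secretory pathway. It gave 1092, 1250 and 953 after contusion, against 1046, 1129 and 1094 in uninjured cord. The contused arrays held both the highest and the lowest of the 6 values, and the means of 1099 ± 149 after contusion and 1090 ± 41.5 in uninjured cord differed by less than either SD (log2 change 0.0036, SE 0.13). This does not show that the level was the same.

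**Figure D2:**
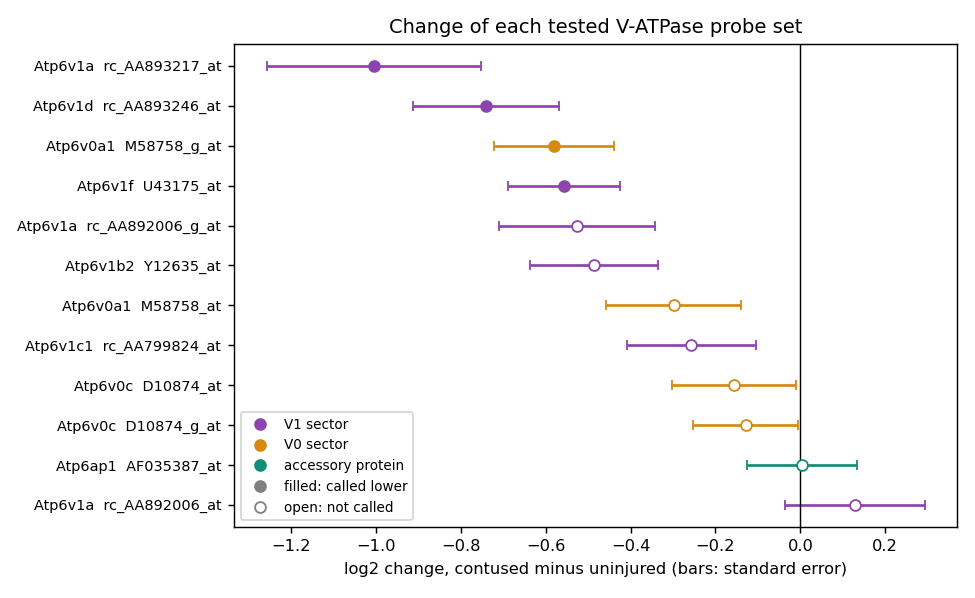
Log2 change of each of the 12 tested V-ATPase probe sets, contused minus uninjured, on the horizontal axis, with bars of 1 standard error from limma. Colours give the sector and filled points the 4 probe sets called lower; changes run from -1.0 for one Atp6v1a probe set to 0.13 for another.

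The members did not follow one order among the contused arrays. Contused array 3 was the highest of its group for 7 of the 12 tested probe sets, and the lowest for 5, among them both Atp6v0c probe sets and Atp6ap1. Relative to each probe set's uninjured mean, the family's median log2 signal was -0.45, -0.45 and -0.33 on contused arrays 1, 2 and 3. On uninjured arrays 1, 2 and 3 it was -0.059, 0.026 and 0.067. The same median over all probe sets tested lay between -0.029 and 0.015 on all 6 arrays.

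Other genes of acidic organelles were taken from lists of known function, with 1 probe set per gene, the tested one with the highest mean. Counted in that way, the called probe set stood for Atp6v1a and for Atp6v0a1, genes whose other probe sets were not called. By this count 4 of 8 V-ATPase genes were called lower and 0 higher, with a median log2 change of -0.52. Over all 3955 genes tested, 392 were called lower and 277 higher, with a median of -0.016.

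Of the regulators of pump assembly, 3 of 18 listed genes were tested, with 1 lower and 0 higher. Aldoa, the glycolytic aldolase that also binds the pump, fell 1.53-fold (log2 change -0.61, SE 0.14), a call lost without uninjured array 2 or 3. Of 6 tested channels and transporters that work beside the pump 1 was lower and 1 higher. Clcn4, a chloride-proton exchanger of endosomes, fell 1.36-fold (log2 change -0.45, SE 0.13), a call lost when any single array was left out. P2rx4, an ATP-gated channel of lysosomes and of activated microglia, rose 2.63-fold, to 340 ± 22.5 against 129 ± 11.6 in uninjured cord. Clcn7, the exchanger of lysosomes, named here with its value already known, had a log2 change of 0.012.

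In the list of nutrient signalling at the lysosome, in which the pump takes part, 2 of 5 tested genes were lower and 0 higher, with a median log2 change of -0.41. Both called genes, Ywhag and Ywhab, encode 14-3-3 proteins, a family that can hold TFEB in the cytosol and has many other partners. Ywhag fell 1.75-fold and Ywhab 1.54-fold. With single arrays left out, Ywhag was called lower in 6 of 6 cases and Ywhab in 1, without contused array 3, where 4 of the 5 genes were lower.

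The soluble enzymes and membrane proteins of lysosomes stood on the other side of 0. Of 23 tested genes 16 were called higher and 1 lower, with a median log2 change of 0.75. Grn (progranulin), the protease gene Ctsd and the tetraspanin gene Cd63 rose 3.74-fold, 3.59-fold and 2.44-fold. The exception was Ppt1, a lysosomal thioesterase known also from synapses, which fell 1.36-fold (log2 change -0.45, SE 0.13) and was called in 2 of 6 cases with single arrays left out, those without contused array 3 or uninjured array 1. Synaptic vesicle genes were called lower in 16 of 31 cases and higher in 0 (18 and 1 before adjustment of the p), with a median log2 change of -0.57. Dnm1, a GTPase of vesicle recycling, the fusion regulator gene Cplx1 and the vesicle protein gene Vamp1 fell 2.41-fold, 2.53-fold and 2.22-fold. The difference between the V-ATPase genes and either list was not tested, and all lists share the same 6 arrays.

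**Figure D3:**
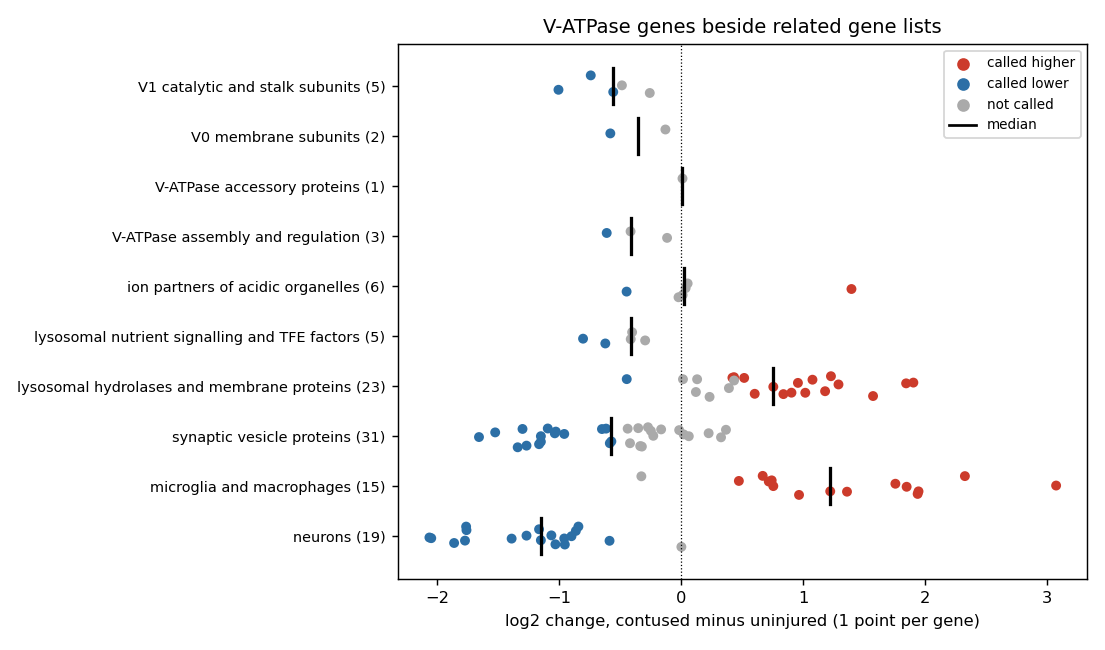
Log2 change, contused minus uninjured, of each tested gene in 10 lists, with the number of genes in brackets, 1 point per gene and a black line at the median. Points are red where called higher, blue where called lower and grey otherwise; medians are -0.56 for V1 genes, -0.35 for V0 genes, 0.75 for lysosomal genes and -0.57 for synaptic vesicle genes.

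Markers of cell types changed in the same tissue. Of 19 tested neuron markers 18 were lower and 0 higher, with a median log2 change of -1.15 and a summed signal of 10652 to 11660 on contused arrays, against 21852 to 25275 on uninjured arrays. The exception was Gap43, the growth cone protein, at 0.0020, and Syt1 was under the floor on all 6 arrays. Thy1 fell 3.41-fold, and Nrgn, under the floor on every contused array, was at least 4.17-fold lower. Nrgn passed the filter through the uninjured arrays alone, so its change could only be downward. With any 1 uninjured array left out, 17 neuron markers were tested and 16 were called lower. Of 15 tested microglia and macrophage markers 14 were higher and 0 lower, with a median of 1.22 and a summed signal of 12235 to 13015 on contused arrays, against 4426 to 5346 on uninjured arrays. Lgals3 rose 8.40-fold and Fcgr2b, under the floor on every uninjured array, at least 5.01-fold, while Csf1r had a log2 change of -0.33. Fcgr2b passed the filter through the contused arrays alone, so its change could only be upward. With any 1 contused array left out, 13 microglia and macrophage markers were tested and 11 or 12 were called higher. The synaptic vesicle list shares 4 genes with the neuron list (12.9% of the first and 21.1% of the second), and without them 12 of 27 were lower and 0 higher. The lysosomal list shares 1 gene, Ctss, with the microglia list, and without it 15 of 22 were higher and 1 lower. Fewer cells of a type and less RNA per cell cannot be told apart in such bulk tissue, and the part of these shifts in the V-ATPase values was not tested.

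Of other cell types, 5 of 10 tested oligodendrocyte and myelin markers were lower, 3 of 12 astrocyte markers higher and 5 of 12 fibroblast and meningeal markers higher, with none called in the opposite direction by limma, also before adjustment of the p. Summed signals of the fibroblast and meningeal list were 13251 to 15562 after contusion, against 10392, 11498 and 6968 on uninjured arrays 1, 2 and 3. Uninjured array 3 stood lowest, and without it 3 of the 12 were called higher, with a median log2 change of 0.36 against 0.54 with all arrays. The count was also 3 without contused array 2. The astrocyte count was 1 without contused array 2 or without uninjured array 3, and 2 or 3 without any other single array. Motor neuron markers were lower in 3 and higher in 1 of 9 cases. Among those 3, Nefh also stands in the neuron list, and another stands in the synaptic vesicle list. No Schwann cell, endothelial or lymphocyte marker was called by limma (0 of 7, 0 of 8 and 0 of 7). The Schwann cell marker Pmp22 was called higher without contused array 1. Without contused array 3, and without uninjured array 2, 1 Schwann cell marker other than Pmp22 was called higher. Before adjustment, at a p under 0.05, 2 Schwann cell markers were higher, 2 endothelial markers lower and 0 lymphocyte markers passed either way, against 16.9% of all genes tested lower and 12.9% higher.

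**Figure D4:**
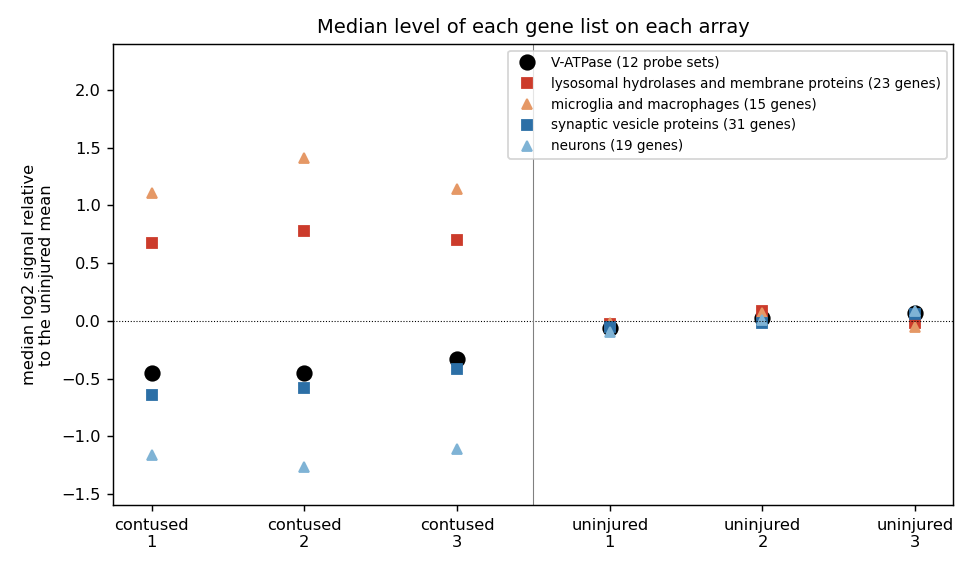
Median log2 signal of each list on each array, relative to the mean of the 3 uninjured arrays for every probe set, with contused arrays 1 to 3 on the left and uninjured arrays 1 to 3 on the right. Black circles are the 12 V-ATPase probe sets, at -0.45 to -0.33 on contused arrays; neuron and synaptic vesicle genes also lie below 0 there, and microglial and lysosomal genes above it.

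The patterns most like those at the ends of the family were found by the root-mean-square difference of log2 signals over the 6 arrays, each probe set centred on its uninjured mean. For Atp6v1a at rc_AA893217_at, the largest fall, the closest of 5500 named probe sets of other genes were those of Arl3 (0.11), Atp1b1 (0.11) and Ugt8 (0.14). Arl3 encodes a small GTPase, Atp1b1 the beta subunit of the sodium pump and Ugt8 the enzyme of myelin galactolipids. For rc_AA892006_at of the same gene, the highest change in the family, they were those of Acot7 (0.045), Reg1a (0.046) and Ankrd1 (0.055). With 2 groups of 3 arrays, this likeness follows the difference between groups and the scatter of single arrays.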

How the data were processed

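Total RNA of 6 samples was measured on one-colour rat arrays, 1 array per sample, and groups came from the sample titles. The deposited table holds 1 linear intensity per probe set and array. The sources used here do not give how the authors summarised, background-corrected or scaled it. Trimmed means (2% at each end) spread by 8.94%, under a limit of 10%, so values were used as deposited. The 59 control probe sets were left out. Symbols came from the array annotation (7006 of 8740 probe sets with 1 gene, 308 with several, 1426 with none), updated to GRCr8 names for 6985, none of them changed in this family.

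Values under the pooled 25th percentile (61.6) were set to it before log2, so changes of dim genes are understated. Probe sets above it on at least 3 arrays were tested (6705), by limma 3.58.1 under R 4.3.3 (lmFit and eBayes with a trend, two-sided), with Benjamini-Hochberg adjustment over all of them, a threshold of 0.05 and 4 residual degrees of freedom. The number of arrays limits the precision. Nothing in the labels says that each array is a separate animal, so standard errors and calls measure the spread between arrays, which may be in part technical. No scan or extraction batch is given.

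The family, the gene lists and the rule for named genes were chosen with earlier results of these data known. Named are all members, up to 3 genes per direction with the smallest p in each pathway list, up to 2 in each marker list (printed where a result turns on them), and the 3 nearest patterns at each end of the family. Clcn7, Csf1r, Gap43, Syt1 and Ctss are named outside that rule, with their values known. Alternatives changed the floor, the filter, the scaling, the variance prior, the replicate block, single arrays, the probe set per gene and the promoter window. Plots used Python 3.11.15 and matplotlib 3.10.9.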

Additional observations from a re-analysis of the deposited data

How the results depend on the processing

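Of 168 recomputed log2 changes of V-ATPase probe sets (12 probe sets in 14 settings), 145 kept direction and side of the threshold. Of the others, 13 lost a call, 6 gained one and 4 turned in sign. The lost calls all fell on the 4 called probe sets. Of 14 settings, the call was kept in 9 for Atp6v1a, 12 for Atp6v1d, 11 for Atp6v1f and 11 for Atp6v0a1. The count called lower, 4 as reported, was 1 without the filter on dim probe sets, and over all probe sets 396 were then lower and 266 higher, against 643 and 522. Leaving out single arrays gave 0 to 5 V-ATPase probe sets lower and 0 higher, 371 to 783 of all probe sets lower and 288 to 458 higher. The cause was not tested. Signs turned only for small changes that were not called: with single arrays left out, Atp6ap1 ran from -0.094 to 0.10, Atp6v0c (D10874_at) from -0.26 to 0.0034 and Atp6v1a (rc_AA892006_at) from -0.023 to 0.21. With the replicate number as a block, 5 V-ATPase probe sets were lower and 0 higher, and 665 and 535 of all. Deviations of same-numbered arrays from their group means had r = 0.042, 0.22 and -0.24 across probe sets for numbers 1, 2 and 3. For unlike numbers r ran from -0.27 to 0.27. Deviations centred within groups of 3 cannot decide whether arrays were paired. The sample titles name no pairs, so the numbers are not taken as pairs. The microglia list's median was 0.97 with all probe sets of a gene averaged, and 1.22 as reported. Averaged in the same way, the median was -0.42 for synaptic vesicle genes, against -0.57 as reported. For V1 genes it was -0.49 against -0.56, for V0 genes -0.29 against -0.35, and for lysosomal genes 0.75 both ways. Leaving out single arrays was chosen for the related lists after seeing the data. It gave 13 to 16 lysosomal genes higher and 11 to 17 synaptic vesicle genes lower. It also gave 16 to 18 neuron markers lower and 11 to 13 microglia markers higher. The number tested changed as well, with 19 neuron and 13 microglia markers without a contused array. Without an uninjured array, 17 neuron and 15 microglia markers were tested. Signals under 61.6 carry no order.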
